A study of Mus musculus with 6 samples.

Results

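The centromere-proximal regions of the mouse autosomes were taken as all accessible regions of chromosomes 1 to 19 that end at or before 8 Mb. This rule uses position only and gave 2076 of the 58172 regions in the table, against 54923 in the rest of the autosomes. The assay was ATAC-seq on endothelial cells isolated from mouse lung: Tn5 transposase cuts and tags DNA where it is open. WT libraries (n = 3) are labelled Cre-neg and CSE-KO libraries (n = 3) Cre-pos, where CSE is cystathionine gamma-lyase, the enzyme encoded by Cth. Cre and the loss of CSE go together in every library, so their effects cannot be told apart. The sample labels name neither the promoter that drives Cre nor the age of the mice, nor whether each library is from its own animal. The p-values therefore measure the spread between these libraries, which may be technical. In a bulk assay, a change in the number of cells with an open site and a change in how open it is per cell cannot be told apart.

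Mouse autosomes carry their centromere at one tip, which is the low-coordinate end of the reference. The centromere itself is built on satellite repeats that are packed into constitutive heterochromatin, marked by methylated histone H3 and by methylated DNA and kept largely closed. The reference leaves this satellite DNA mostly unassembled, and the first assembled sequence next to it is rich in repeats, pseudogenes and multicopy gene families. No autosomal region of the table starts before position 3000031 (mm10), so the first 3 Mb of every autosome hold none. Distances in the plots are counted from 3 Mb, and the first 0.2 Mb of sequence, up to 3.2 Mb, is called the edge. The edge was chosen after the values were seen.

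Promoter sequences are shown for 5 genes that the results turn on: a pseudogene promoter at the edge that was higher in CSE-KO, an edge promoter with a difference near 0, and 3 gene promoters further in. Each is the 250 bases before the RefSeq start (GRCm38.p6, which is mm10), printed 5′ to 3′ on the gene's strand, with CpG dinucleotides in capitals. LOC115490388 lies at chr6:3182866-3183115 (plus strand), Scaf8 at chr17:3114722-3114971 (plus), Igfbp3 at chr11:7213924-7214173 (minus), Samd9l at chr6:3399572-3399821 (minus) and Pdgfd at chr9:6168236-6168485 (plus).
LOC115490388: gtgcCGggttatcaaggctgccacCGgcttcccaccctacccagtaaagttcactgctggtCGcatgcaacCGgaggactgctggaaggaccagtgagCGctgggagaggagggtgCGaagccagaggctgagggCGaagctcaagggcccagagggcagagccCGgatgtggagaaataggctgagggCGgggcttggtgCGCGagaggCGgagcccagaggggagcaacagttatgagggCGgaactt
Scaf8: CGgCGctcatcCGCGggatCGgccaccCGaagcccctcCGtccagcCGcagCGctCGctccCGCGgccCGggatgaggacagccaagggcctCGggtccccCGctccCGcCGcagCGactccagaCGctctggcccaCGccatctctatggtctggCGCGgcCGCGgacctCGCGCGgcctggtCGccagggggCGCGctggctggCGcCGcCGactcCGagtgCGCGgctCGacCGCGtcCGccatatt
Igfbp3: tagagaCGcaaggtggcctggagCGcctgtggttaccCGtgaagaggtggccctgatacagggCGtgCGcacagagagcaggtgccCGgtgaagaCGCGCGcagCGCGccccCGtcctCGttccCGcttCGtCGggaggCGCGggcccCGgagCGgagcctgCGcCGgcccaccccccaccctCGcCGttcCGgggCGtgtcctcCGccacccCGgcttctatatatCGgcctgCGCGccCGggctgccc
Samd9l: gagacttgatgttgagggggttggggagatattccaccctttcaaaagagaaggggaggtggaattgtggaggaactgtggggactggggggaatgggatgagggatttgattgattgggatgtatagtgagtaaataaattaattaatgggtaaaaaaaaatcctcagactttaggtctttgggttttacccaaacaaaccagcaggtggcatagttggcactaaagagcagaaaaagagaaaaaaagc
Pdgfd: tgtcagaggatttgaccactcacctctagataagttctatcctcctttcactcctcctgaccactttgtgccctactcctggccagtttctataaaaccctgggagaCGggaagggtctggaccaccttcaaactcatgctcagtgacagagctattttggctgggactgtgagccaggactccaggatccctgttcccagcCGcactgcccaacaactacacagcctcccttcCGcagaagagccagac
The windows hold 13 CpG in LOC115490388, 40 in Scaf8, 32 in Igfbp3, 0 in Samd9l and 3 in Pdgfd. Of all 32851 RefSeq promoter windows on assembled chromosomes, 31.5% hold at least as many CpG as LOC115490388, 1.31% as many as Scaf8, 4.58% as many as Igfbp3 and 71.0% as many as Pdgfd. Among members, 412 overlapped a RefSeq promoter window. Their median CpG count was 16.0 for the 15 that were higher in CSE-KO, 7.0 for the 11 that were lower and 17 for the 386 that did not pass the test. The GC box GGGCGG, searched on both strands, was in 53.3%, 27.3% and 65.5% of these, against 32.7% of all windows. The AP-1 motif TGANTCA, searched likewise, was in 5.1% of the 412 and in 6.75% of all windows. These shares describe letters in a window and no binding was measured.

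Over all members, the change in CSE-KO was close to that of the rest of the genome, except at the edge. Of 2075 members with a mean value of at least 5, 187 were higher in CSE-KO (9.01%) and 182 were lower (8.77%) at an adjusted p under 0.05 in limma. Over all 58129 tested regions, 17.3% were called in either direction, 7.7% higher and 9.6% lower, and in the rest of the autosomes 7.72% were higher and 9.69% lower. The median log2 change, CSE-KO minus WT, was 0.04 in the members, -0.01 in the rest and 0.00 over all tested regions. The count of called members depended on each WT library: it fell from 369 to 139, 141 and 130 without WT replicate 1, 2 or 3, as the count in the rest fell from 9553 to 3410, 3493 and 3339.

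In steps of 1 Mb, the share of higher regions was furthest above the 7.72% of the rest of the autosomes in the first. It was also above it, by less, from 5 to 6 Mb. From 3 to 4 Mb, 70 of 475 regions were higher (14.7%) and 43 were lower (9.05%). From 4 to 5 Mb, 27 of 463 were higher (5.83%) and 43 lower (9.29%). From 5 to 6 Mb, 42 of 467 were higher (8.99%) and 33 lower (7.07%). From 6 to 7 Mb, 28 of 389 were higher (7.2%) and 39 lower (10%). From 7 to 8 Mb, 20 of 281 were higher (7.12%) and 24 lower (8.54%). The medians of the 5 steps were 0.05, 0.04, 0.06, 0.01 and 0.02 on the log2 scale, so the typical region moved little in any of them.

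In steps of 200 kb, 31 of the 48 edge regions were higher in CSE-KO (64.6%) and 2 were lower, with a median log2 change of 2.67. From 3.2 to 3.4 Mb, 18 of 117 regions were higher (15.4%) with a median of 0.12. Between 3.4 and 8 Mb, the 23 steps held from 1.18% to 15.6% higher regions, with medians from -0.22 to 0.12. Beyond the edge, 156 of 2027 members were higher (7.7%) and 180 lower (8.88%), shares near those of the rest of the autosomes. Rises of at least 8-fold were found in 23 of the 48 edge regions, in 3 of 2027 members beyond it and in 91 of 54881 regions in the rest of the autosomes. One of the 23 is listed at 0 in all WT libraries. Of the 31 higher edge regions, 6 had a WT mean under 5. These 6 reached the filter of a mean of at least 5 only through CSE-KO, so they could not have come out lower.

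**Figure D1:**
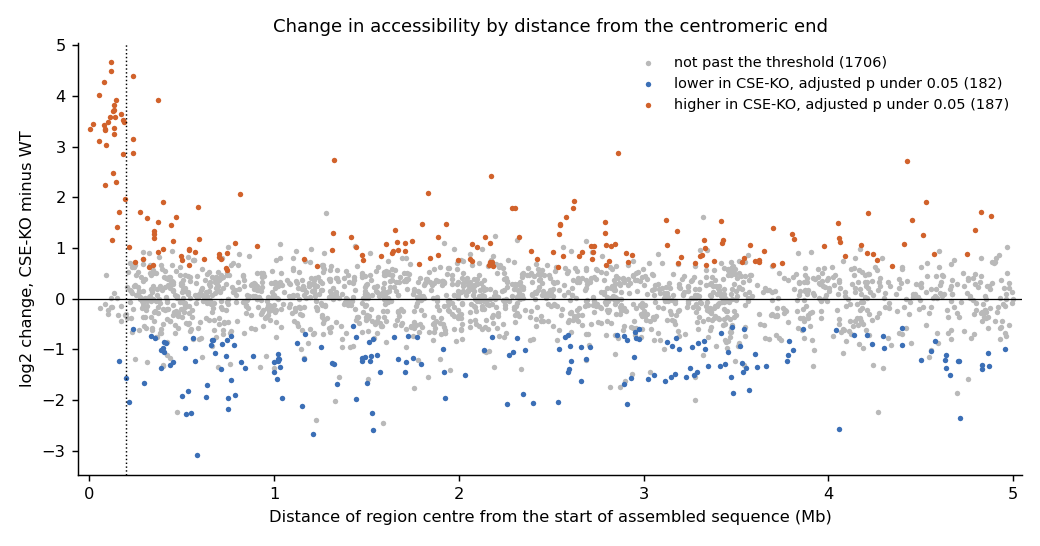
Each point is 1 of the 2075 tested members, plotted by the distance of its centre from the start of assembled sequence (x, Mb) and its log2 change, CSE-KO minus WT (y). Orange and blue points passed an adjusted p under 0.05 and the dotted line marks the end of the edge at 0.2 Mb, left of which 31 of 48 regions were higher in CSE-KO.

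**Figure D2:**
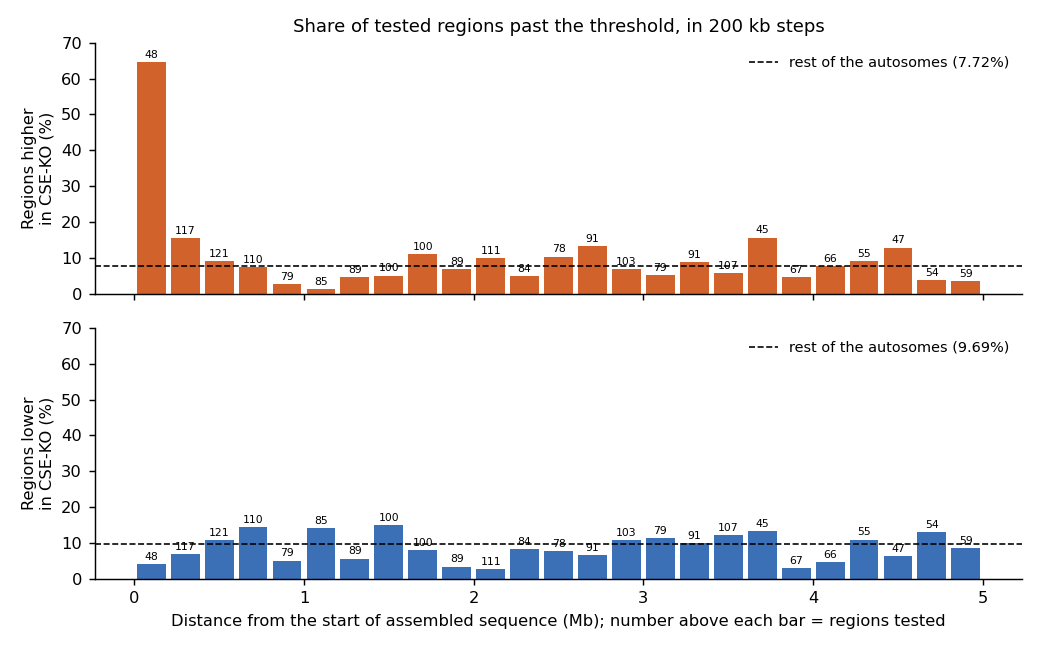
Bars give the percent of tested regions that were higher (top) or lower (bottom) in CSE-KO in each 200 kb step, by distance from the start of assembled sequence (x, Mb). Small numbers are the regions tested and dashed lines the rest of the autosomes (7.72% and 9.69%); the first bar at 64.6% stands above all others in the top panel.

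The strongest signal among members was chr9:3000031-3038219, a block of 38188 bp that the table assigns to Gm10719, a predicted protein-coding gene 1.72 kb from its centre. Its values were 6004, 4453 and 3103 for WT against 45173, 47692 and 50390 for CSE-KO. Every CSE-KO library stood far above every WT library, and the WT libraries themselves differed among each other more than those of CSE-KO did on the log scale. The log2 change was 3.45 ± 0.25 (SE), or 10.9-fold, with an adjusted p of 0.00167 (limma). No RefSeq gene overlaps the block, and the nearest, Mir101c, a microRNA gene, begins just beyond its end.

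This block was the only member with a value over 10000, and the autosomes held 5 other such regions. These lie at chr2:98662236-98663988, chr2:98666249-98667321, chr9:35305218-35305591, chr14:19415724-19419702 and chr17:39843032-39846317. All 5 were higher in CSE-KO, by 5.06-fold to 10.3-fold. In the members with and without the block, 187 of 2075 (9.01%) and 186 of 2074 (8.97%) were higher, so it bears on the summed signal and hardly on the counts.

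On chromosome 11, 14 of the 15 edge regions were higher in CSE-KO. They span chr11:3100432-3193674, over Pisd-ps1, a pseudogene copy of the phosphatidylserine decarboxylase gene, and Sfi1, which encodes a centrin-binding protein of the centrosome. The region at chr11:3131779-3132462, inside Sfi1, held 100, 72 and 80 for WT against 1127, 1157 and 1038 for CSE-KO. Its log2 change was 3.72 ± 0.18, or 13.2-fold (adjusted p = 0.000833, limma). At chr11:3142130-3142403, 0.219 kb from a lncRNA start inside Sfi1, values were 24, 31 and 24 for WT against 412, 418 and 400 for CSE-KO. The groups did not overlap in either, and the CSE-KO libraries were close to each other.

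The Sfi1 promoter region, chr11:3192995-3193674, was more accessible in WT to begin with, at 281, 254 and 274, and reached 956, 1140 and 1101 in CSE-KO. Its rise of 1.98 ± 0.16 on the log2 scale, or 3.93-fold (adjusted p = 0.00211, limma), was among the smaller on this chromosome's edge, where the 14 rises ran from 2.67-fold to 15.1-fold. One region between them did not pass the test: chr11:3123559-3124402, beside the start of Pisd-ps1, had 589, 566 and 588 for WT against 542, 470 and 538 for CSE-KO. It was the highest of the 15 in WT.

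Pisd-ps2, another pseudogene copy on chromosome 17, showed the same arrangement at smaller scale. The region chr17:3077130-3077662 held 8, 9 and 14 for WT against 203, 170 and 276 for CSE-KO, a log2 change of 4.27 ± 0.27 (19.3-fold, adjusted p = 0.00113, limma). At chr17:3081576-3083477 the values were 296, 316 and 325 for WT against 1521, 1350 and 1613 for CSE-KO (4.76-fold). The region at the start of Pisd-ps2, chr17:3083901-3084792, had 641, 702 and 681 for WT against 555, 645 and 686 for CSE-KO, so the groups overlapped. Further along, the promoter of Scaf8, a gene for an RNA polymerase II-binding protein whose CpG-rich sequence is printed above, had 648, 619 and 775 for WT against 657, 763 and 633 for CSE-KO. Its log2 change was 0.01 ± 0.17 (SE).

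Chromosome 12 had 1 edge region, chr12:3109867-3110103, with 197, 145 and 107 for WT against 1768, 1721 and 1800 for CSE-KO. The rise was 12.1-fold, with a log2 change of 3.59 ± 0.24 (adjusted p = 0.0013, limma). Chromosome 4 had 3, between 3081269 and 3091158, all higher by 8.14-fold to 10.2-fold. The highest of them, chr4:3089542-3091158, went from 155, 109 and 97 in WT to 1098, 889 and 925 in CSE-KO. Their nearest RefSeq gene is Vmn1r-ps2, a pseudogene of the vomeronasal pheromone receptor family, 13.4 to 22.0 kb away.

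Vomeronasal receptor genes and pseudogenes were also the nearest genes to the edge regions of chromosomes 16 and 18 and to 3 of the 4 on chromosome 6. On chromosome 18, chr18:3117470-3118603 is assigned to Vmn1r238, a vomeronasal receptor gene whose start lies 5.38 kb from the region's centre. Its values were 2, 4 and 6 for WT against 101, 92 and 179 for CSE-KO, a log2 change of 4.66 ± 0.38 (25.3-fold, adjusted p = 0.00211, limma). The neighbouring chr18:3118848-3119052 is listed at 0 in all 3 WT libraries and at 25, 26 and 15 in CSE-KO. Both regions had a WT mean under 5 and passed the filter only through CSE-KO, so neither could have come out lower. At chr18:3005278-3005951 the values rose from 49, 50 and 33 to 480, 423 and 446 (10.2-fold).

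On chromosome 6 all 4 edge regions were higher, from WT means of 0.333 to 3.33 to CSE-KO means of 13 to 41. Their deposited values were thus near 0 in WT. All 4 passed the filter on the mean only through CSE-KO, so they could not have come out lower. The pseudogene promoter LOC115490388, at chr6:3183039-3183217, had 3, 4 and 3 for WT against 39, 28 and 25 for CSE-KO, a log2 change of 2.85 ± 0.22 (adjusted p = 0.00179, limma). The single edge region of chromosome 16, chr16:3122743-3123117, rose least of the 31, from 36, 23 and 32 to 77, 57 and 71 (2.23-fold, adjusted p = 0.0166, limma).

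Chromosomes 2 and 5 differed from these. Of 10 edge regions on chromosome 2, only chr2:3050174-3050393, the first, was higher, from 3, 14 and 8 in WT to 69, 64 and 75 in CSE-KO (8.62-fold). The other 9 lie before or inside Fam171a1, which encodes a membrane protein, and 2 inside it were lower: chr2:3158598-3158919 and chr2:3196636-3197213. The second of these fell from 90, 119 and 119 to 51, 21 and 44 (2.94-fold, adjusted p = 0.0234, limma). None of the 3 edge regions of chromosome 5 passed the test, and their log2 changes lay between -0.32 and 0.01. The remaining 9 autosomes had no edge region.

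By annotation, 16 of the 31 higher edge regions had no gene in the table, 5 were assigned to a transcribed unprocessed pseudogene, 4 to a protein-coding gene, 2 to a lncRNA, 2 to a processed pseudogene, 1 to a microRNA and 1 to a polymorphic pseudogene. Without chromosome 11, 17 of 33 edge regions were higher (51.5%) and 2 lower. Promoters, within 1 kb of a start site, made up 8 of the 48 and 5 of these were higher. In 12 of the 17 higher edge regions with a WT mean of at least 30, WT replicate 1 held the highest WT value, and the ratio of replicate 1 to replicate 3 ranged from 0.872 to 1.93.

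Under each refit run, with other pseudocounts, filters and scalings or 1 library left out, 27 to 31 edge regions were higher. The 27 are of the 41 edge regions that a filter mean of at least 20 leaves, against 31 of 48 in the main fit. Of the 33 called edge regions, 4 lost their call when 1 WT library was left out, with adjusted p from limma: chr11:3147078-3147347 without replicate 3 (0.0507), chr16:3122743-3123117 without replicate 2 or 3 (0.0579 and 0.0573), chr2:3158598-3158919 without replicate 1 (0.0536) and chr2:3196636-3197213 without any one of them (up to 0.0837). Satellite repeats, Pisd pseudogenes and vomeronasal receptor genes exist in many similar copies, and how reads with several matches were handled is not given in the sources used here. A value at 1 copy may therefore hold reads from others. The CSE-KO libraries also rest on fewer reads, an estimated 3340000 to 3630000 in regions against at least 5240000 in WT, and their part in this result was not tested.

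**Figure D3:**
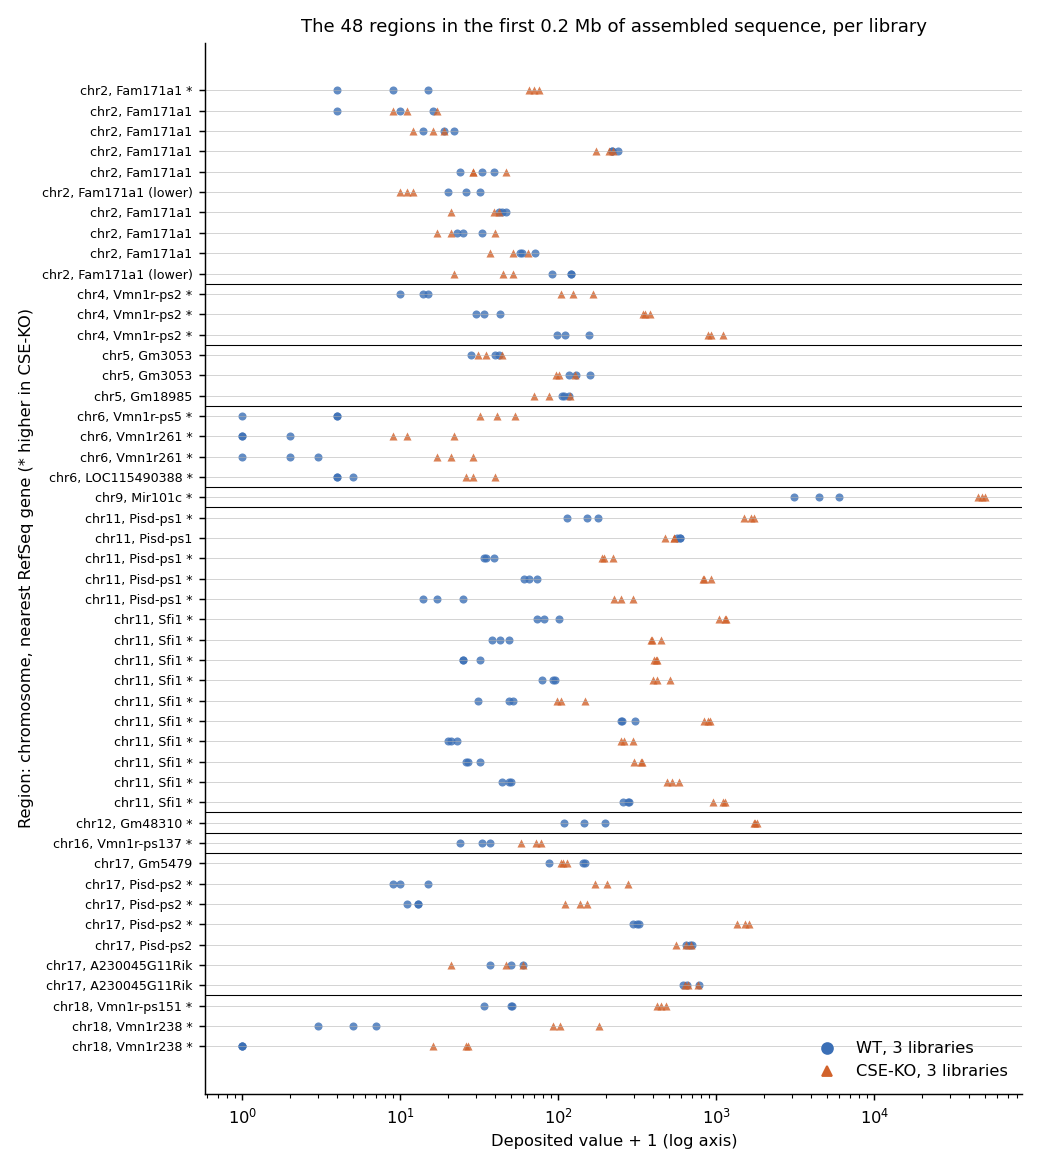
Each row is 1 of the 48 edge regions, labelled by chromosome and nearest RefSeq gene, and each symbol is 1 library (x, deposited value + 1, log axis; circles WT, triangles CSE-KO). The 14 starred rows of chromosome 11 and those of chromosomes 4, 6, 9, 12 and 18 show triangles right of all circles, while those of chromosome 5 mix.

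Just beyond the edge, from 3.2 to 3.4 Mb, 4 of the 18 higher regions rose by at least 7.38-fold. On chromosome 16, 3 regions within chr16:3233235-3236276 rose by 21.1-fold, 8.93-fold and 7.38-fold. The first of them had 3, 1 and 1 for WT against 70, 46 and 44 for CSE-KO. It passed the filter on the mean only through CSE-KO, so it could not have come out lower. On chromosome 13, chr13:3372906-3373586 had 16 in each WT library and 234, 282 and 258 in CSE-KO, a log2 change of 3.93 ± 0.16 (15.2-fold, adjusted p = 0.000804, limma). The other 14 rose by 1.53-fold to 3.77-fold and include a distal region of Cdk6, a cell cycle kinase gene, and the promoter of Samd9l, an interferon-inducible antiviral gene. These regions were named after their values were seen.

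The summed signal moved with the edge. Members held 4.0%, 4.0% and 3.95% of the autosomal sum for WT and 4.81%, 4.85% and 4.89% for CSE-KO. The means were 3.98% ± 0.0287 (SD, n = 3) and 4.85% ± 0.0407 (SD, n = 3), a difference of 0.864 percentage points (two-sided exact permutation p = 0.1, the smallest that 3 against 3 libraries allow). Without regions over 10000 in either sum, the shares were 3.93% ± 0.0151 and 4.2% ± 0.00724, a difference of 0.275 (exact permutation p = 0.1, n = 3 per group). The groups did not overlap in either case.

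The edge moved by more than this difference, its share going from 0.179% ± 0.027 to 1.19% ± 0.0431 (SD, n = 3 each). The chr9 block alone went from 0.0863% to 0.878%. Without regions over 10000 the edge still held 0.0938% ± 0.000435 in WT and 0.331% ± 0.00519 in CSE-KO. Beyond the edge, the members held 3.83% and 3.87%, a difference of 0.0369 (exact permutation p = 0.1, n = 3 per group), again without regions over 10000. With those regions counted in the sum, the share beyond the edge was lower in CSE-KO by a difference of -0.148 percentage points (exact permutation p = 0.1, n = 3 per group).

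By 1 Mb step, the share from 3 to 4 Mb was 0.968% in WT and 1.96% in CSE-KO, or 0.889% and 1.14% without regions over 10000. In the other 4 steps the share of all values was lower in CSE-KO, by 0.01 to 0.049 percentage points. Leaving out regions over 10000 changed this: the difference was then 0.0356 from 5 to 6 Mb (exact permutation p = 0.1, n = 3 per group) and between -0.00591 and -0.00438 in the steps from 4 to 5, 6 to 7 and 7 to 8 Mb. The 5 regions over 10000 outside the members held 0.736% ± 0.123 (SD, n = 3) of the autosomal sum for WT and 4.7% ± 0.0852 for CSE-KO, which lowers every other share in CSE-KO.

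**Figure D4:**
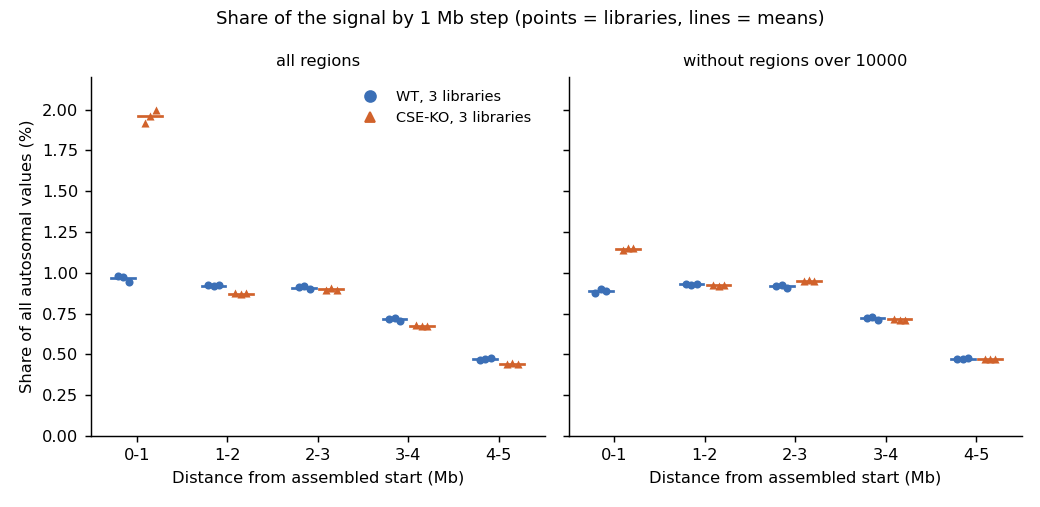
Points are the share of all autosomal values (y, %) held by each 1 Mb step (x, distance from the start of assembled sequence) in each library, and lines are group means, with all regions (left) or without regions over 10000 (right). The groups stand far apart in the first step, at 0.968% against 1.96% on the left and 0.889% against 1.14% on the right.

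The mean log2 value weighs each region equally and gave a smaller difference. It was higher in members than in the rest of the autosomes by 0.07 ± 0.007 (SD, n = 3) for WT and by 0.131 ± 0.011 for CSE-KO. The difference between groups was 0.061 (exact permutation p = 0.1), and 0.059 without regions over 10000. Without chromosome 11 it was 0.0371. The edge stood below the rest in WT, by -0.368 ± 0.06, and above it in CSE-KO, by 1.65 ± 0.058. Beyond the edge, the difference between groups was 0.014 (exact permutation p = 0.2, n = 3 per group).

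By 1 Mb step, this difference was 0.234 from 3 to 4 Mb, -0.023 from 4 to 5, 0.078 from 5 to 6, -0.031 from 6 to 7 and 0.004 from 7 to 8 Mb. The exact permutation p was 0.1 for 3 to 4 and 5 to 6 Mb, 0.2 for 4 to 5 and 6 to 7 Mb, and 0.9 for 7 to 8 Mb, with n = 3 per group. Steps 3 to 4 and 5 to 6 Mb were therefore the ones in which the groups did not overlap.

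Promoters and distal regions of the members were each set beside their kind elsewhere on the autosomes. Of 559 member promoters, 30 were higher (5.37%) and 17 lower (3.04%), against 5.34% and 3.34% of other promoters, with a median log2 change of 0.15 against 0.11 for promoters in the rest of the autosomes. Of 1516 distal members, 157 were higher (10.4%) and 165 lower (10.9%), against 8.41% and 11.5% of other distal regions, with a median of -0.02 against -0.06. On the mean log2 scale, member promoters differed from other promoters by 0.059 between groups, and distal members from other distal regions by 0.05 (exact permutation p = 0.1 for each, the smallest possible, n = 3 per group). Promoters made up 26.9% of members and 22.4% of the other autosomal regions. Beyond the edge, distal members differed from other distal regions by -0.005 between groups on the mean log2 scale (exact permutation p = 0.7, n = 3 per group), and promoters by 0.034 (exact permutation p = 0.1).

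The chromosomes were uneven. Members numbered from 24 on chromosome 3 to 293 on chromosome 19, and their median change ran from -0.18 on chromosome 14 to 0.17 on chromosome 11. It was above that of the rest of the same chromosome in 12 of 19, and the share of higher regions was above it in 13 of 19. On chromosome 4, 13 of 84 members were higher (15.5%) against 7.9% of its other regions, on chromosome 6, 11 of 78 (14.1%) against 7.88%, and on chromosome 11, 29 of 213 (13.6%) against 6.93%. Part of this was the edge: beyond it the shares were 10 of 81 (12.3%) on chromosome 4, 7 of 74 (9.46%) on chromosome 6 and 15 of 198 (7.58%) on chromosome 11, where the median change was 0.08, and the share was above that of the rest of the same chromosome in 12 of 19. Chromosome 14 had 0 higher members of 32. More members were lower than higher on chromosomes 2, 7, 10, 12, 14, 17 and 18. The counts were 23 lower and 9 higher of 160 on chromosome 2, and 20 lower and 8 higher of 145 on chromosome 18. In the rest of chromosomes 2 and 18, lower regions also outnumbered higher ones, at 9.73% against 7.75% and 10.8% against 7.69%.

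**Figure D5:**
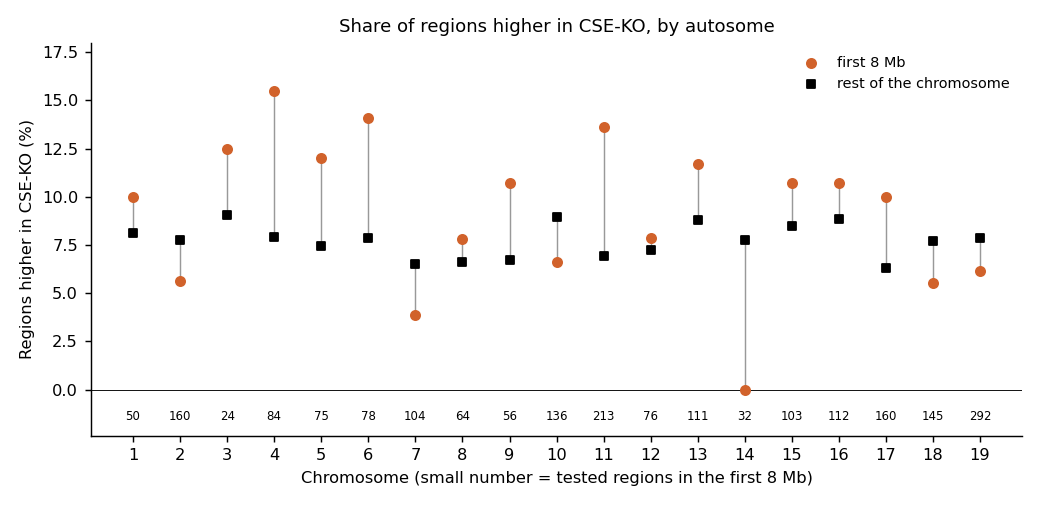
For each autosome (x), the circle is the percent of tested members and the square the percent of its other tested regions that were higher in CSE-KO (y), with the number of members tested at the bottom. Circles lie above squares on 13 of 19 chromosomes, furthest on chromosomes 4, 6 and 11, and the circles include edge regions, 14 of the 29 higher ones on chromosome 11.

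Regions that fell were spread over the whole window, and the 10 largest falls among regions of at least median signal lay beyond the edge. The region chr18:4208016-4208520, whose nearest protein-coding gene Lyzl1, of the lysozyme family, is 26 kb away, had 110, 84 and 90 for WT against 13, 14 and 15 for CSE-KO. Its log2 change was -2.67 ± 0.17 (adjusted p = 0.00128, limma). At chr17:7713071-7713769, 25.2 kb from Fndc1, a fibronectin domain gene, the values were 133, 151 and 135 for WT against 26, 28 and 26 for CSE-KO, a log2 change of -2.35 ± 0.15. In both, the CSE-KO libraries were close together and far below WT.

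Inside Celf2, a gene for an RNA-binding splicing factor, chr2:7056212-7056813 had 124, 140 and 102 for WT against 7, 26 and 39 for CSE-KO (log2 change -2.57 ± 0.55, adjusted p = 0.0228, limma). At 14.5 kb from Gdi2, which encodes a Rab GDP dissociation inhibitor, chr13:3523376-3523752 fell from 100, 79 and 94 to 15, 18 and 21. At 30.1 kb from Sox17, a gene for an endothelial transcription factor, chr1:4527359-4527742 fell from 110, 93 and 91 to 25, 20 and 15 (log2 change -2.26 ± 0.22, adjusted p = 0.00307, limma). Inside Rbfox1, another splicing factor gene, chr16:5911954-5912378 fell from 107, 92 and 111 to 33, 17 and 23.

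The other 4 of the 10 largest falls were inside Insr, 40.2 kb from Mtpap, 76.1 kb from Iyd and 513.5 kb from Klf6. Inside Insr, the insulin receptor gene, chr8:3215326-3216003 had 166, 161 and 125 for WT against 33, 31 and 44 for CSE-KO, a log2 change of -2.04 ± 0.21 (adjusted p = 0.00337, limma). It is also the first region of chromosome 8. At chr18:4439671-4440466 the values went from 284, 214 and 234 to 69, 38 and 84. At chr10:3630732-3631278 they went from 193, 234 and 219 to 56, 57 and 52, and at chr13:5347649-5348355 from 152, 141 and 119 to 59, 21 and 39.

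Among genes of vascular and endothelial signalling, 30 of the 36 listed had at least 1 member. Their 146 regions held 6 that were higher and 12 that were lower, with a median log2 change of 0.00, beside 7.7% higher and 9.6% lower over all regions. The promoter of Pdgfd, a ligand of the PDGF beta receptor, had 340, 290 and 274 for WT against 88, 98 and 138 for CSE-KO. Its groups were well apart, with a log2 change of -1.49 ± 0.22 (adjusted p = 0.00758, limma). A second Pdgfd region, chr9:6480403-6481021, had 79 in each WT library and fell to a mean of 21.3 in CSE-KO.

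Igfbp3, which encodes a carrier of insulin-like growth factors, was higher at its promoter, from 7, 13 and 12 to 29, 41 and 38 (log2 change 1.69 ± 0.26, adjusted p = 0.00902, limma). Ghr, the growth hormone receptor gene, had 19, 34 and 24 for WT against 114, 75 and 87 for CSE-KO at a region 4.58 kb from its start (1.82 ± 0.26, adjusted p = 0.0075, limma). Lrp5, a Wnt co-receptor gene, fell from 117, 101 and 108 to 44, 64 and 48 at a region 4.97 kb from its start.

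Of 162 regions of 30 cytoskeletal and small GTPase genes, 10 were higher and 20 lower, with a median of -0.02. Over all tested regions, 7.7% were higher and 9.6% lower. Syne1, a nuclear envelope nesprin gene, was higher 2.24 kb from its start, from 29, 54 and 33 to 108, 93 and 116 (log2 change 1.47 ± 0.26, adjusted p = 0.0121, limma). Arhgef18, a guanine nucleotide exchange factor gene, rose from 19, 17 and 25 to 54, 44 and 44 at a region 4.92 kb from its start. Ehbp1l1, an endosomal trafficking gene, rose from 92, 113 and 98 to 183, 195 and 194. The promoter of Rgs20, a regulator of G protein signalling, rose from 11, 8 and 14 to 29, 23 and 20. Frmd4a, a scaffold gene on chromosome 2, had 5 regions that fell, by -1.23 to -0.54 on the log2 scale.

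Chromatin and transcription regulators had 85 regions in 29 of 32 genes, of which 5 were higher and 3 lower, with a median of 0.16. The shares over all tested regions were 7.7% higher and 9.6% lower. Arid1b, a subunit gene of SWI/SNF remodellers, held 3 of the higher regions and 1 of the lower. The one nearest its start had 82, 86 and 95 for WT against 137, 169 and 143 for CSE-KO (log2 change 0.76 ± 0.17, adjusted p = 0.0248, limma). Dnmt3a, a DNA methyltransferase gene, had 23, 35 and 26 for WT against 36, 63 and 61 for CSE-KO near a start site (adjusted p = 0.0659, limma), while a region inside the gene, chr12:3887530-3888182, fell from a mean of 106.7 to 49.3. Zfhx4 and Epc1 regions had adjusted p of 0.0658 and 0.0835 (limma).

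Genes of metabolism and mitochondria had 39 regions in 20 of 33 genes, with 0 higher and 5 lower and a median of -0.14. Beside these stand 7.7% higher and 9.6% lower over all tested regions. Mthfd1l, a mitochondrial one-carbon enzyme gene, held 4 of the 5, with log2 changes from -2.11 to -0.87, and Cpt1a, the gene for the carnitine acyltransferase that admits fatty acids to mitochondria, held the other (-0.78 ± 0.20). None of the 17 promoters in this group passed the test. The Gstp1 promoter, of a glutathione transferase gene, had 113, 88 and 105 for WT against 65, 80 and 61 for CSE-KO (adjusted p = 0.0799, limma). The list also holds Prpf18, a pre-mRNA splicing factor gene that is not a metabolic gene and had no called region. Regions at Selenop, Pfkp and Prpf18 had adjusted p from 0.107 to 0.157 (limma).

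Inflammation and cell death genes had 42 regions in 20 of 28 genes, with 3 higher and 4 lower and a median of 0.2. Among all tested regions, 7.7% were higher and 9.6% lower. Samd9l was higher at its promoter, from 19, 34 and 29 to 51, 49 and 62 (log2 change 0.99 ± 0.24, adjusted p = 0.0349, limma). Osm, an interleukin-6 family cytokine gene, rose from 83, 78 and 71 to 113, 132 and 121 at a region 3.58 kb from its start. Lif, of the same family, had adjusted p = 0.0535 and the promoter of Osmr, the Osm receptor gene, 0.0539 (limma), with WT and CSE-KO means of 249.0 and 382.0 at Osmr. Lyn, a Src family kinase gene, had 3 regions that fell and 1 that rose.

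For long noncoding RNAs and multicopy genes, the list's assignment found members in only 2 of 11 listed genes, Sfi1 and Pisd-ps2. These are edge regions described above, and all 8 of their regions under that assignment were higher. It leaves out regions that have a table gene without a symbol. Left out in this way are the higher regions inside Pisd-ps1. So are the regions at the starts of Pisd-ps1 and Pisd-ps2, which did not pass the test. The list was drawn up with that result known.

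Over all members, 47 promoters were called, and those that follow were named after their values were seen. Near Dynlt1, a dynein light chain gene present in several near-identical copies on chromosome 17, 3 promoters were higher, by 0.74 to 1.16 on the log2 scale, and reads may be shared between the copies. The promoter of Peg10, an imprinted gene derived from a retrotransposon, rose from 26, 31 and 33 to 70, 66 and 64. Mcoln1, a lysosomal channel gene, rose from 147, 129 and 140 to 222, 253 and 230, and Dpf2, of the BAF remodeller, from 174, 177 and 140 to 256, 239 and 322. Among falls, the promoter of Pex2, a peroxisome assembly gene, went from 598, 679 and 644 to 384, 408 and 341, and that of Stip1, a co-chaperone gene, from 517, 438 and 508 to 330, 280 and 343.

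Calls away from the edge were close to the threshold more often. Among the regions named by rule, 11 of 34 called ones lost their call when 1 library was left out. All 11 lie beyond the edge, while the 34 also include edge regions, none of which lost its call. Each WT library alone did so for the Celf2 region (adjusted p up to 0.0801, limma), the chr13:5347649 region (0.0636) and Lrp5 (0.0612). Samd9l and chr2:6478360-6479318 lost it without any one of the 6 libraries (up to 0.0915 and 0.141). Osm lost it without any library but CSE-KO replicate 1 (up to 0.126), and Arid1b without any WT library or CSE-KO replicate 2 (up to 0.0937). Rgs20 lost it on leaving out any library numbered 1 or 2, of either group (up to 0.0868), Ehbp1l1 without WT replicate 1 or 3 (up to 0.058), Arhgef18 without WT replicate 1 (0.0508) and Syne1 without WT replicate 3 (0.0548). The promoters of Pdgfd and Igfbp3 and the Ghr and Insr regions kept their calls in all 6 fits.

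Of 119 called regions looked at outside the rule, at the edge, next to it, in listed genes or at promoters with a symbol, 82 lost their call when 1 library was left out. Among them are the distal Cdk6 region and the promoters of Dpf2 and Stip1, without any one of the 6 libraries, with adjusted p (limma) up to 0.125, 0.143 and 0.15. Mcoln1 and Pex2 lost it without any one WT library, up to 0.0854 and 0.0879, and the 3 Dynlt1 promoters in 2 to 5 of the 6 fits, up to 0.132. The call of Peg10 held in all 6.

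Some called regions lay near others of the same direction. Runs of at least 3 were sought among called distal members, with gaps of at most 100 kb and called promoters left out. They numbered 16 for lower regions, with 58 of the 165 lower distal calls, and 8 for higher regions, with 35 of the 157 higher ones. The higher runs include those at the edge described above, with 3 calls each on chromosomes 4 and 17. One of 12 calls on chromosome 11 starts at the edge, and one of 3 on chromosome 16 lies just beyond it. The other higher runs start further in. How many such runs an even spread of calls would give was not tested. With promoters kept in the region totals, every region was a called distal one in 2 of the 16 lower and 4 of the 8 higher runs. Fewer than 50% were in 6 and 3. Runs are named here by their nearest protein-coding genes, which can lie well outside them. In the run chr13:5545191-5666877, with Klf6 as its nearest and outside it, 3 of 8 regions rose and 1 fell. At Lyn 4 of 10 fell. At Jcad and Mtpap all 4 regions between chr18:4439671 and 4515565 fell, at Gdi2 all 3, and beside Fndc1 4 of 5. At Fyb, an immune adaptor gene, all 3 regions between chr15:6574423 and 6649253 rose, with a median of 0.95. Neighbouring regions share sequence context and are not independent.

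The strongest WT region differed in its change between steps. After the chr9 block, these were chr8:4677344-4678866 (WT mean 780.0, CSE-KO mean 620.7), chr13:5801958-5804012 (712.3 and 523.0), chr2:6478360-6479318 (534.3 and 361.3) and the promoter of Pcmtd1, a gene for a methyltransferase domain protein (497.0 and 515.0). Of these 4, only the chromosome 2 region passed the test, with a log2 change of -0.56 ± 0.15 (adjusted p = 0.0423, limma).

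Values summed to 5242490 to 5368491 per WT library and 5437296 to 5547417 per CSE-KO library. The reads given above were estimated from the whole numbers up to 100 that a column skips: 35 to 39 in CSE-KO and 0 in WT. The residual SD was 0.306 in WT and 0.481 in CSE-KO on the log2 scale. The Cth promoter had 195, 157 and 167 for WT against 11, 6 and 2 for CSE-KO. Promoter regions were found for 9 of 11 endothelial markers (not for Pecam1 or Sox17), summing to 1209 to 1260 in WT and 1287 to 1420 in CSE-KO, while their median went from 157 to 91.7. Of these 9, Tie1 (log2 change -1.27) and Egfl7 (-0.86) were lower and Kdr (0.71) and Tek (0.71) higher, past the threshold. They were found for 1 of 5 leukocyte markers (155 to 194 and 91 to 106), 1 of 5 lung epithelial markers (22 to 27 and 36 to 57) and 3 of 5 mural and fibroblast markers (154 to 159 and 228 to 263). The part of such cells in the results was not tested.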

How the data were processed

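The 6 ATAC-seq libraries (3 WT, 3 CSE-KO) come from lung endothelium. The submitters' processing notes name the build mm10 and the tools DESeq2 1.26.0, Picard 3.1.1, STAR 2.7.3a and Trimmomatic 0.39, without their roles. Which peak caller was used, and whether reads were shifted for Tn5, is not stated there. What the authors deposited was handled as a score: whole numbers per region with near-equal sums, which look like scaled and rounded counts, so no count model was run.

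Every region with a 6-library mean of 5 or more was tested on log2(value + 1) with limma 3.58.1 in R 4.3.3 (trend and robust off), with Benjamini-Hochberg adjustment at 0.05 over all 58129. Fold changes are on that scale, which understates those of low regions. Sums and means per library were compared by exact permutation over libraries in Python 3.11.15. On simulated data of 58129 regions, 94% of 200 4-fold changes were recovered. The simulation used the same dispersion setting for both groups, and recovery of smaller changes was not tested.

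Promoters are within 1 kb of a start site in the table. A region belonged to a listed gene by the table's symbol or, with no table gene, by lying in its RefSeq span (GRCm38.p6). Named regions were those over 10000, the 10 largest rises and falls among called regions whose groups do not overlap and whose mean reaches the median, up to 4 genes per list by p, and the highest WT region per step. The members and lists were chosen with earlier results of these data known. Some listed regions enter the counts but are not reported here by name.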

Additional observations from a re-analysis of the deposited data

How the results depend on the processing

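The difference between groups in mean log2 value, members minus rest, stayed above 0 in each setting run, from 0.0144 without the edge to 0.107 with a limit of 5 Mb. Calls among the 2075 members also moved. With trend and robust on, 583 were called, 297 higher and 286 lower. With a limit of 5 Mb, 183 of 938 were called, 97 higher and 86 lower, and with 12 Mb 650 of 3570, 313 higher and 337 lower. Leaving out 1 library at a time gave 130 to 323 called, 74 to 148 higher and 52 to 176 lower. With the replicate block, 220 were called, 107 higher and 113 lower. Same-numbered libraries did not deviate together (correlations of -0.00593, -0.0105 and 0.0105), so the numbers were not taken as a pairing. The cause of these moves was not tested.

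Edge regions higher in CSE-KO numbered 27 to 31 in every refit, with 27 of 41 at a filter mean of at least 20. Without chromosome 11 they numbered 17 of 33. Both settings leave fewer regions. The members' share of values without the edge fell below that of WT, by -0.148, when regions over 10000 were kept; the edge was chosen after seeing the data. Over 46 regions named by rule, 15 refits took 43 calls away, added 22 and turned none of their directions. Over 134 others, they took 407 away and turned 13 directions, all of uncalled edge regions. When median-centred, Scaf8 went to -0.00863 and chr5:3146700-3147188 to -0.0114 (log2). Leaving out 1 library at a time gave -0.0709 to 0.107 for Scaf8, -0.176 to 0.12 for chr5:3146700-3147188, -0.613 to 0.144 for chr17:3102213-3102731, -0.0887 to 0.911 for chr2:3089271-3089516, -0.114 to 0.276 for chr2:3132291-3132661 and -0.497 to 0.12 for chr2:3172735-3173042. Count models were not run, since the values are not raw counts. Fewer CSE-KO reads limit low regions.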
